A study of Gallus gallus with 4 samples.

Results

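The genes described here are 5 extracellular matrix genes of the chick embryo: COL9A1, COL27A1, ACAN, TNC and ADAMTS15. They were taken by name from the authors' deposited table of genes that differ between cranial and trunk neural crest, and make up 5 of its 212 rows. The table lists COL9A1 as CO9A1_CHICK, ACAN (aggrecan) as PGCA_CHICK and TNC (tenascin-C) as TENA_CHICK. All 5 genes were listed higher in cranial than in trunk neural crest, from 2.78-fold for COL27A1 to 20.6-fold for ADAMTS15 in the authors' deposited table. Every one of the 212 rows was higher in cranial cells and marked significant by the authors (100% of rows), so the shared direction of the 5 genes is a property of the list and not a result about them.

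The neural crest leaves the dorsal neural tube and migrates through a matrix of collagens, glycoproteins and hyaluronan-bound proteoglycans. In the head it forms the cartilage and bone of much of the face, which trunk neural crest does not normally do. Cartilage matrix is built of fibrillar collagen with collagen IX on its surface, and of aggrecan, a large chondroitin sulphate proteoglycan held on hyaluronan. Tenascin-C lines migration routes of the crest in bird embryos, and some proteases of the ADAMTS family cut proteoglycans of the aggrecan and versican kind.

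The cranial group held 2 libraries, replicates A and B, of cells from heads at Hamburger-Hamilton stage HH9+ electroporated with the FoxD3 enhancer NC1. The trunk group held 2 libraries, replicates A and C, of cells from trunks at stage HH14 electroporated with the FoxD3 enhancer NC2. Both groups were live GFP-positive cells sorted by flow cytometry after dissociation, so each group holds the cells in which its enhancer drove the reporter, and their RNA was amplified before sequencing. Axial level, stage and enhancer differ together between the groups and cannot be told apart.

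The table gives 1 value per gene and group, so the value in each library, the replicate spread and the read depth are unknown here. Levels are read as FPKM, the abundance of sequenced fragments scaled for transcript length and library size, so that levels of different genes can be set side by side. How far the amplification of the RNA altered the levels of different genes is unknown here. An implied standard error (SE) of each log2 fold was obtained by dividing it by the authors' test score. It carries the authors' error model and not a spread measured between libraries. Neural crest identity could not be checked against the 13 crest markers sought. None of them, FOXD3, SOX9 and SOX10 included, had a row under its symbol (0 of 13), and a gene outside the table has no value here. In bulk RNA, fewer cells that make a transcript and less of it per cell cannot be told apart.

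**Figure D1:**
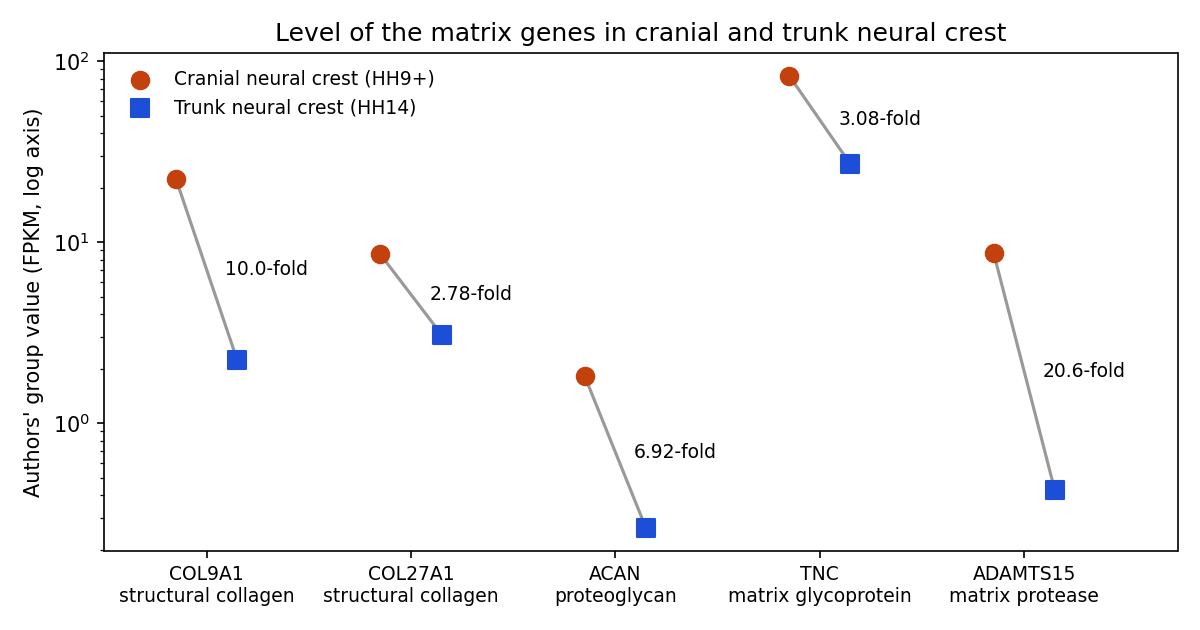
Authors' value of each matrix gene in cranial (circles) and trunk (squares) neural crest, in FPKM on a log axis, with the fold between them. TNC was highest in both groups (83.0 FPKM for cranial, 26.9 FPKM for trunk), and ADAMTS15 had the steepest line at 20.6-fold.

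Among the collagens, COL9A1 was the more abundant of the pair in cranial cells and the less abundant in trunk cells. COL9A1 encodes the alpha-1 chain of collagen IX, which coats cartilage collagen fibrils. Its value was 22.3 FPKM for cranial and 2.23 FPKM for trunk crest, per the authors' deposited table. The cranial value was 10.04-fold higher (log2 3.33, implied SE 0.70, 95% interval 1.96 to 4.70, authors' q = 0.000222). COL27A1 encodes a fibrillar collagen of cartilage. Its value was 8.55 FPKM for cranial and 3.08 FPKM for trunk crest, per the authors' deposited table. That is a 2.78-fold difference with the narrowest interval of the 5 genes (log2 1.48, implied SE 0.32, 95% interval 0.85 to 2.11, authors' q = 0.000458). The level of COL9A1 was 2.61 times that of COL27A1 in cranial cells and 0.723 times it in trunk cells, so the order of the 2 collagens differed between the groups. The table gives no error for a level, so the order of levels within a group could not be tested. The difference between their log2 folds was 1.85, with a 95% interval of 0.35 to 3.36 from the implied SEs. That interval takes no account of the authors' selection of rows by significance. At its implied SE, COL9A1 could be listed only from a log2 fold of 2.22, above the 1.48 of COL27A1.

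The COL9A1 row spans 253675 bases on chromosome 3, from 85586689 to 85840363 in the authors' table, the longest interval of the 5 genes and the 9th longest of the 212. In the chicken gene table of assembly GRCg7b, COL9A1 overlaps the collagen gene COL19A1, which has no row of its own under that symbol. How the authors' software divided reads between overlapping genes is not given in the sources used here, so the COL9A1 level is uncertain, and the part of COL19A1 in it was not tested. The implied SE of COL9A1, 0.70, was larger than the median of 0.33 for the 20 rows nearest to it in cranial level. COL27A1 was the reverse, with an implied SE of 0.32 where the 20 rows nearest in cranial level had a median of 0.60. These rows were matched on cranial level alone and differed in fold. For COL9A1 their median log2 fold was 1.56 against its own 3.33, and for COL27A1 2.53 against its own 1.48. The COL27A1 row spans 126035 bases on chromosome 17, from 5299717 to 5425751 in the authors' coordinates. In the GRCg7b gene table, by its own coordinates, no other protein-coding gene overlaps COL27A1. The genome build of the authors' coordinates is not settled, and no exon, intron or UTR was assigned.

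Aggrecan was the least abundant of the 5 genes in both groups. ACAN, its gene, had 1.82 FPKM for cranial and 0.262 FPKM for trunk crest, per the authors' deposited table. The row lies on chromosome 10 from 14733845 to 14760022. The cranial value was 6.92-fold higher (log2 2.79, implied SE 0.61, 95% interval 1.60 to 3.98, authors' q = 0.000460). This fold rests on a small trunk value: the absolute difference was 1.55 FPKM, and with 1 FPKM added to both values the fold became 2.23 (log2 1.16). ACAN stood 68th of 212 rows by fold as deposited and 145th with 1 FPKM added.

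Tenascin-C was the most abundant of the 5 genes in both groups and had the least secure difference by the authors' test. TNC, which encodes this large glycoprotein of the migration routes, had 83.0 FPKM for cranial and 26.9 FPKM for trunk crest, per the authors' deposited table. Both values are among the highest of the list, the 14th of 212 in cranial and the 19th in trunk cells. The cranial value was 3.08-fold higher (log2 1.63, implied SE 0.49, 95% interval 0.66 to 2.59, authors' q = 0.0351). Its q was the largest of the 5 genes and the 188th of 212, although 56.1 FPKM separated the groups, the largest absolute difference of the 5. The implied SE of TNC was above the median of 0.37 for the 29 rows with at least 50 FPKM in cranial cells. Adding 1 FPKM to both values hardly moved its fold (log2 1.59). The TNC row lies on chromosome 17 from 3035601 to 3102255.

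ADAMTS15, the protease of the set, had the largest fold and the smallest q of the 5 genes. It encodes a secreted metalloprotease known in mammals to cut aggrecan and versican. Its value was 8.75 FPKM for cranial and 0.425 FPKM for trunk crest, per the authors' deposited table, on chromosome 24 from 1703731 to 1716955. The cranial value was 20.6-fold higher (log2 4.37, implied SE 0.57, 95% interval 3.24 to 5.49, authors' q = 1.61e-11), the 15th largest fold and the 10th smallest q of the 212 rows. With 1 FPKM added to both values the fold was 6.85 (log2 2.78), the 17th of the table and below the 7.24 of COL9A1. The lead of ADAMTS15 by fold thus depends on its small trunk value. In cranial cells ADAMTS15 and COL27A1 stood at nearly the same level, with a ratio of 1.02, while in trunk cells ADAMTS15 was at 0.138 times the level of COL27A1. Its close relative ADAMTS8 is the next protein-coding gene on one side in the GRCg7b gene table and has no row under that symbol.

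**Figure D2:**
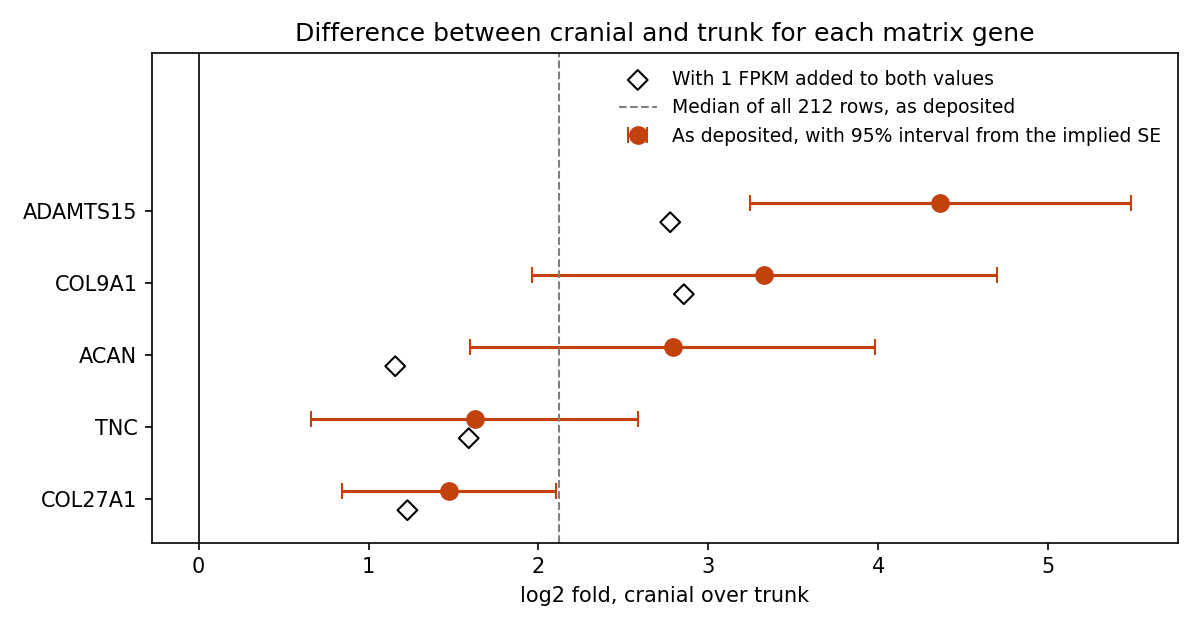
The log2 fold, cranial over trunk, of each matrix gene as deposited (filled, with the 95% interval from the implied SE) and with 1 FPKM added to both values (open diamonds); the dashed line is the median of all 212 rows, 2.12. That median comes from rows the authors selected by significance. It is drawn as a mark, and no gene was tested against it. The diamonds of ACAN and ADAMTS15 lay farthest from their filled points.

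By fold, the order was ADAMTS15, COL9A1, ACAN, TNC and COL27A1. No neighbours in that order were separated by their implied SEs: the 95% interval of the difference in log2 fold was -0.73 to 2.81 for ADAMTS15 less COL9A1, -1.28 to 2.35 for COL9A1 less ACAN, -0.37 to 2.70 for ACAN less TNC and -1.00 to 1.30 for TNC less COL27A1. Of the 10 pairs, 4 had an interval that left out 0, and each of these set ADAMTS15 or COL9A1 against TNC or COL27A1. ADAMTS15 exceeded COL27A1 by 2.89 in log2 fold (1.60 to 4.18) and TNC by 2.74 (1.26 to 4.22), and COL9A1 exceeded TNC by 1.70 (0.03 to 3.38). These intervals treat the errors of 2 genes as independent, although all come from the same libraries, and are not adjusted for the 10 pairs. They also take no account of the authors' selection of rows by significance. At their implied SEs, ADAMTS15 could be listed only from a log2 fold of 1.82 and COL9A1 only from 2.22. Both limits lie above the folds of TNC (1.63) and COL27A1 (1.48). These limits hold each implied SE fixed, although it was itself computed from the deposited fold. How far the selection of rows shaped the 4 differences was not tested. With 1 FPKM added to both values the order became COL9A1, ADAMTS15, TNC, COL27A1 and ACAN.

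By level, the order was TNC, COL9A1, ADAMTS15, COL27A1 and ACAN in cranial cells, and TNC, COL27A1, COL9A1, ADAMTS15 and ACAN in trunk cells. The highest level was 45.7 times the lowest in cranial cells and 103 times the lowest in trunk cells. Summed over the 5 genes, the authors' values came to 124 FPKM for cranial and 32.9 FPKM for trunk crest, a 3.78-fold difference. TNC made up 66.7% of that sum in cranial and 81.8% in trunk cells. COL9A1 made up 17.9% in cranial and 6.76% in trunk cells, and ADAMTS15 7.03% in cranial and 1.29% in trunk cells. The share of COL27A1 ran the other way, at 6.87% in cranial and 9.35% in trunk cells.

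The size of the differences was set beside that over the whole list by counts alone, with no test. At least 4-fold differences were found for 3 of the 5 genes, COL9A1, ACAN and ADAMTS15, and for 54.2% of all rows. At least 8-fold differences were found for COL9A1 and ADAMTS15, 2 of the 5, and for 26.9% of all rows, and at least 2-fold differences for all 5 and for 81.6% of all rows. With 1 FPKM added to both values, COL9A1 and ADAMTS15 stayed at 4-fold or more, 2 of the 5, against 25.5% of all rows. Differences of at least 4-fold with a q under 0.01 were found for the same 3 genes as without that limit and for 35.4% of all rows. Among the 149 rows with at least 1 FPKM in both groups, COL9A1 was the 1 of 3 matrix genes at 4-fold or more, against 35.6% of those rows. An authors' q under 0.001 was given for 4 of the 5, all but TNC, and for 38.7% of all rows. The median log2 fold was 2.79 over the 5 genes and 2.12 over all rows, and with 1 FPKM added to both values it was 1.59 over the 5 genes and 1.51 over all rows. Among rows with at least 1 FPKM in both groups the median was 1.63 over the 3 matrix genes left and over all 149 rows. Both medians are the value of the TNC row itself, so their match compares that row with itself. The list itself sets a floor on the folds: the smallest score in the authors' deposited table was 3.18, so a gene with the implied SE of TNC reached it only from a log2 fold of 1.56, and one with that of COL9A1 only from 2.22. TNC, at 1.63, stood just above its floor, while ADAMTS15, at 4.37, stood far above its own of 1.82.

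**Figure D3:**
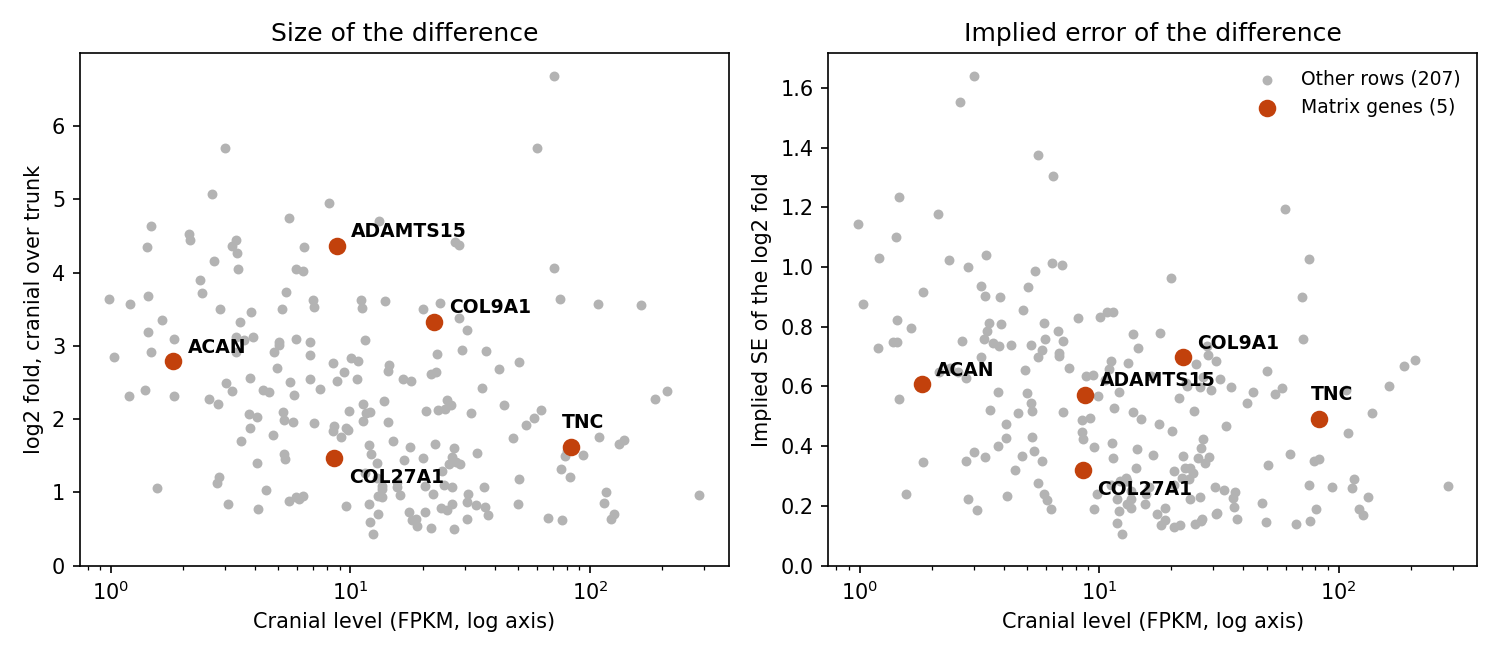
The log2 fold, cranial over trunk (left), and its implied SE (right) against the cranial level in FPKM on a log axis, for the 5 matrix genes and the other 207 rows of the authors' table. TNC lies among the most abundant rows and ACAN among the least, and COL9A1 has a larger implied SE (0.70) than COL27A1 (0.32) at a higher level.

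Other matrix genes were looked up by symbol, as a count with no test, since it is unknown how many genes the authors tested. Of 232 distinct genes in 10 lists of matrix components, enzymes, receptors and chondrogenic regulators, 11 had a row, these 5 and 6 more. COL27A1 and COL9A1 were the 2 listed rows among 21 fibrillar and fibril-associated collagens, ACAN the 1 among 15 hyaluronan-binding proteoglycans, link proteins and hyaluronan enzymes, TNC the 1 among 24 tenascins and interstitial glycoproteins, and ADAMTS15 the 1 among 24 ADAMTS and ADAMTS-like genes. The lists of small leucine-rich proteoglycans (10 entries), other matrix proteases and inhibitors (25 entries) and matrix receptors (23 entries) had 0 listed rows. COL2A1, the main cartilage collagen, COL9A2 and COL9A3, the partner chains of collagen IX, and HAPLN1, which links aggrecan to hyaluronan, had no row under their symbols. A gene without a row can have missed the authors' threshold, been higher in trunk or been listed under an accession. In 94 of the 212 rows at least part of the name was not a current gene symbol, so a gene there could be missed.

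The 6 further genes were 4 of basement membrane, 1 of collagen synthesis and 1 regulator. P4HA1, a subunit of the prolyl hydroxylase that stabilises collagen, had 37.5 FPKM for cranial and 23.3 FPKM for trunk crest, per the authors' deposited table, a 1.61-fold difference (q = 0.000984). SOX8, a SoxE transcription factor related to the chondrogenic regulator SOX9, had 30.7 FPKM for cranial and 3.30 FPKM for trunk crest, per the authors' deposited table, a 9.31-fold difference (q = 0.000288). SOX9 was itself also among the crest markers sought. The basement membrane genes COL4A5, COL4A6, NID2 and LAMB1 had folds from 1.63 to 3.39 by the authors' deposited table.

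Aggrecan and collagen IX are also made by the notochord of bird embryos, and tenascin-C by other embryonic tissues. Of 13 markers of notochord and sclerotome, 0 had a row under their symbols, so their levels in the sorted cells are not known here. Of 15 markers of surface ectoderm and placodes, 2 had a row. CDH1, or E-cadherin, had 24.9 FPKM for cranial and 5.65 FPKM for trunk crest, and ESRP1, an RNA splicing regulator of epithelia that the table calls RBM35A, had 2.56 FPKM for cranial and 0.532 FPKM for trunk crest, per the authors' deposited table. Like all 212 rows, these epithelial genes were higher in cranial cells. The direction they share with the matrix genes is therefore a property of the list. The part of these epithelial genes in the matrix differences was not tested.

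The rows most like each matrix gene were sought among 118 rows with a symbol, by the distance between their pairs of log2 group values. The 94 rows without a symbol were left out, and some of them stood nearer than rows named here. With only 2 values per gene, likeness means a similar level in both groups. TNC had the nearest match, GFPT2, an enzyme of hexosamine synthesis, with 80.4 FPKM for cranial and 27.3 FPKM for trunk crest, per the authors' deposited table (distance 0.050 on the log2 scale). The next nearest to TNC with a symbol was UACA, at 75.5 FPKM for cranial and 30.3 FPKM for trunk crest, per the authors' deposited table. A row without a symbol was nearer to TNC than UACA, at 78.8 FPKM for cranial and 28.0 FPKM for trunk crest, per the authors' deposited table. Of the rows with a symbol, CYTL1, a secreted protein described in mammalian cartilage, was nearest to COL9A1, with 28.4 FPKM for cranial and 2.72 FPKM for trunk crest, per the authors' deposited table (distance 0.45). ASTN1, whose row shares its locus with another, was the next nearest with a symbol (distance 0.65). A row without a symbol was nearer to COL9A1 than both, at 23.7 FPKM for cranial and 1.97 FPKM for trunk crest, per the authors' deposited table. The kinase PAK1 and the splicing regulator ESRP2 were nearest to COL27A1, the calcium channel gene CACNA1E and the deubiquitinase USP35 to ACAN, and GSTA2 and the nociceptin precursor PNOC to ADAMTS15, at distances from 0.26 to 0.62.

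TNC and COL27A1 were the 2 rows of the table on chromosome 17, with 2.20 Mb between them in the authors' coordinates. None of the 5 genes shared a locus with another row. The nearest listed row to ADAMTS15 was CEPU1_CHICK, 110.2 kb away, at 17.8 FPKM for cranial and 5.77 FPKM for trunk crest, per the authors' deposited table. AGBL1 lay 551 kb from ACAN, at 1.19 FPKM for cranial and 0.239 FPKM for trunk crest, per the authors' deposited table. The row nearest to COL9A1, named in the table by an accession, lay 4.32 Mb away. In the GRCg7b gene table the link protein gene HAPLN3 is the neighbour of ACAN, and it had no row under that symbol. No protein-coding gene next to or overlapping any of the 5 genes in that gene table had a row under its symbol.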

How the data were processed

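RNA was measured in sorted cranial and trunk neural crest, with 2 libraries per group. The submitters' processing notes name TopHat, Cufflinks, Cuffdiff 2.1 and the assembly galGal4, with no role or order. The authors deposited 1 table of their own comparison, with 1 value per group, read here as FPKM because Cuffdiff writes that unit; per the file headers the columns are only values. The deposited log2 fold is trunk over cranial and was turned round. It equalled the ratio of the values within 0.001 in all 212 rows. The test score, p-value and q-value are the authors' own, per the file headers. In the 193 rows with p of at least 1e-10, each p-value matched a normal two-sided p from the score within 1%. An implied SE was therefore computed as log2 fold over score. Simulated data checked only the arithmetic of that step, with an outcome fixed in advance, and not the meaning of the score. The headers do not state that the score is the log2 fold over its SE. In all 212 rows the deposited log2 fold was negative and the score positive, so their sizes were used without sign. Depth per library is unknown, no replicate test was possible, and no test of matrix genes against other rows was run.

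The members and lists were chosen with earlier results of these data known. Protein entry names were matched by their leading symbol to the gene table of assembly GRCg7b, and 5 names were translated by hand. Named genes were the 5 members, all rows in a matrix list, and the nearest listed row on the chromosome. The 2 rows with a symbol nearest in level to each member were also named. Outside this rule, CDH1 and ESRP1 are named as the listed rows of a marker list, unlisted matrix genes and genomic neighbours are named without values, and 5 genes of the closing observations were chosen with their values seen. Alternatives were pseudocounts of 0.1, 1 and 5 FPKM, folds of 2 and 8, a minimum of 1 FPKM in both groups, a q under 0.01, and the median without ADAMTS15. Python 3.11.15, pandas 2.3.3 and scipy 1.17.1 were used.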

Additional observations from a re-analysis of the deposited data

How the results depend on the processing

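The alternatives could not turn a direction round, since the same amount was added to both values and the others change only limits or the genes counted. With 5 FPKM added to both values, the log2 folds were 1.92 for COL9A1, 0.75 for COL27A1, 0.37 for ACAN and 1.34 for ADAMTS15, each more than 1 implied SE below the deposited value. With 1 FPKM added, ACAN (1.16) and ADAMTS15 (2.78) moved by that much. TNC moved by less than 1 implied SE under every pseudocount, and 0.1 FPKM moved none of the 5 genes by that much. The count of 3 genes at 4-fold or more (54.2% of all rows) became 5 at 2-fold (81.6% of all rows). It became 1 (COL9A1) among the 3 genes with at least 1 FPKM in both groups, where 35.6% of 149 rows passed. It was 2 at 8-fold (26.9% of all rows) and 2 with 1 FPKM added (25.5% of all rows). With a q under 0.01 it was 3 (35.4% of all rows). The median log2 fold of 2.79 became 1.59 with 1 FPKM added and 2.21 without ADAMTS15. With at least 1 FPKM in both groups it was 1.63, the value of TNC, whose row is also the median of those 149 rows. The 11 listed matrix genes were 5 by symbols as the table writes them, and 6 without the members, an alternative chosen after seeing the data. No paired analysis was possible because values per library are not used here, there being 1 per group, and the replicate letters A and B against A and C overlap in a single letter. Libraries could not be left out either. How far depth limits a low gene such as ACAN is unknown.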

Other observations

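Other listed genes are of kinds that can bear on matrix or the cell surface, which was not tested in these cells. They lie outside the lists of matrix genes, and were chosen for what they are known to do, with their values in view and untested. ASTL, a metalloprotease of the astacin family, had 35.5 FPKM for cranial and 6.61 FPKM for trunk crest, per the authors' deposited table, a 5.36-fold difference (q = 0.00351). SPINT1, a membrane-bound inhibitor of serine proteases, had 62.4 FPKM for cranial and 14.3 FPKM for trunk crest, per the authors' deposited table, 4.38-fold apart (q = 2.59e-06). Both were more abundant in cranial cells than ADAMTS15. NDST2, which sulphates heparan chains of proteoglycans, had 27.1 FPKM for cranial and 8.89 FPKM for trunk crest, per the authors' deposited table, 3.06-fold apart (q = 0.00871). A row combining ENPP1, an ectoenzyme that makes the mineralisation inhibitor pyrophosphate, with an unnamed gene had 11.2 FPKM for cranial and 0.976 FPKM for trunk crest, per the authors' deposited table, and how its reads fall on each gene is unknown. SH3PXD2B, an adaptor of podosomes, where cells degrade matrix, differed by 1.91-fold, at 5.90 FPKM for cranial and 3.08 FPKM for trunk crest, per the authors' deposited table (q = 0.00616).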
